A study of Homo sapiens with 4 samples.

Results

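HCT116 cells that carry hairpin #1 against KSR1 were compared with HCT116 cells that carry a non-targeting hairpin, over every gene that the array measured. The comparison uses 2 of the 4 arrays of the study, and all probe sets that the platform annotation assigns to a single gene symbol, which are 41097 of 54675. These probe sets stand for 19775 genes, of which 12496 were bright enough to be analysed. HCT116 is an established human colorectal adenocarcinoma cell line. The 4 arrays hold HCT116 cells with shRNA #1 targeting KSR1 (hairpin #1), with shRNA #2 targeting KSR1 (hairpin #2), with the shCONTROL non-targeting shRNA vector (shCTRL), and untransfected cells. All 4 grew in the same DMEM-based medium with serum. The first 3 were transfected by lipofectamine and selected as puromycin-resistant clones, while the untransfected cells went through neither step. Nothing in the labels says whether an array stands for 1 clone or for several clones together. There was 1 array per condition, so no difference here has a replicate check, an error or a test, and differences between clones cannot be told apart from effects of the hairpin.

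KSR1 is a scaffold protein of the RAS-RAF-MEK-ERK pathway. It binds RAF, MEK and ERK and brings the kinase MEK to the RAF that activates it, and ERK at the end of the chain phosphorylates transcription factors that switch on genes such as FOS, EGR1 and the DUSP phosphatases. A short hairpin RNA is processed into a small interfering RNA that lowers the amount of its target mRNA, so the level of KSR1 itself is the check on the labels.

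Levels are given below as the deposited linear intensities, and differences as hairpin #1 minus shCTRL in units of log2(intensity + 16), where 1 unit is a 2-fold difference of the offset values. A gene was read from its brightest single-symbol probe set and was analysed when its mean over the 4 arrays reached the median of all values, an intensity of 51.3. The arrays were alike in scale, with median intensities of 50.7 to 52.0 and 95th percentiles of 1395 to 1441. The 3'/5' intensity ratio of actin, a sign of RNA integrity, was 2.01 with hairpin #1, 2.22 with hairpin #2, 2.09 in shCTRL and 2.68 in untransfected cells, and the GAPDH ratio lay between 1.14 and 1.19. Epithelial markers were present, as the label says: 12 of 13 measured colon epithelium markers were analysed, and EPCAM, an epithelial adhesion protein, had an intensity of 8119 with hairpin #1 and 7917 in shCTRL. The summed intensity of these markers was 37607 with hairpin #1 and 40642 in shCTRL. Markers of other cell types were mostly under the filter, with 5 of 12 fibroblast, 1 of 8 leukocyte and 3 of 7 endothelial markers analysed. PTPRC, the pan-leukocyte surface phosphatase, was at 16.8 with hairpin #1 and 17.4 in shCTRL, and CDH5, the endothelial cadherin, was at 11.2 with hairpin #1 and 11.1 in shCTRL. Brighter markers of other cell types, with hairpin #1 and in shCTRL, were COL1A1 (372 and 400), ACTA2 (212 and 206) and PECAM1 (80.5 and 91.6). Some epithelial markers lay near the filter, which were KRT20 (52.5 and 63.7), VIL1 (56.0 and 62.6) and CEACAM5 (50.7 and 50.5).

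KSR1 was lower with hairpin #1. Its brightest probe set had an intensity of 141 with hairpin #1 and 211 in shCTRL, and of 171 with hairpin #2 and 209 in untransfected cells. The hairpin #1 array was the lowest of the 4 and lay 33.0% below shCTRL, a log2 difference of -0.53. Among the 250 genes next above it in brightness and the 250 next below, the spread of the differences was 0.32 (SD over genes), and KSR1 stood at percentile 3.80. The 3 further KSR1 probe sets were dim, with differences of -0.13, 0.04 and -0.02, and intensities of 43.7, 38.2 and 27.8 with hairpin #1 against 49.6, 36.9 and 28.3 in shCTRL. The mean over all KSR1 probe sets differed by only -0.16. KSR2, the second scaffold of the family, had an intensity of 374 with hairpin #1 and 226 in shCTRL, a difference of 0.69, and of 224 with hairpin #2 and 370 in untransfected cells. A second KSR2 probe set was dim, at 23.9 with hairpin #1 and 25.7 in shCTRL (-0.07), and the mean over both KSR2 probe sets differed by 0.31. At its brighter probe set KSR2 was level with the untransfected array in one of the hairpin arrays and level with shCTRL in the other.

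Of the 12496 analysed genes, 14 (0.112%) were at least 1 log2 unit higher with hairpin #1 and 54 (0.432%) at least 1 unit lower, 68 (0.544%) in all. At the smaller step of 0.5 units, 210 genes (1.68%) were higher and 346 (2.77%) lower. The distribution as a whole was centred, with a median of 0.0030 and quartiles of -0.13 and 0.14, and its SD over genes was 0.25. The differences ran between -2.66 and 1.96. At the edge of the 1-unit step, the higher genes just inside were PWWP3B at 1.05, CHAC1 at 1.08 and IL6R at 1.08, and those just outside were NAV3 at 0.97, AP4S1 at 0.93 and LETM2 at 0.92. On the lower side SEPTIN3, LINC00326 and SMAD7 were just inside at -1.01, and TMEM45A, SLC2A1 and DEPP1 just outside at -0.99.

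**Figure D1:**
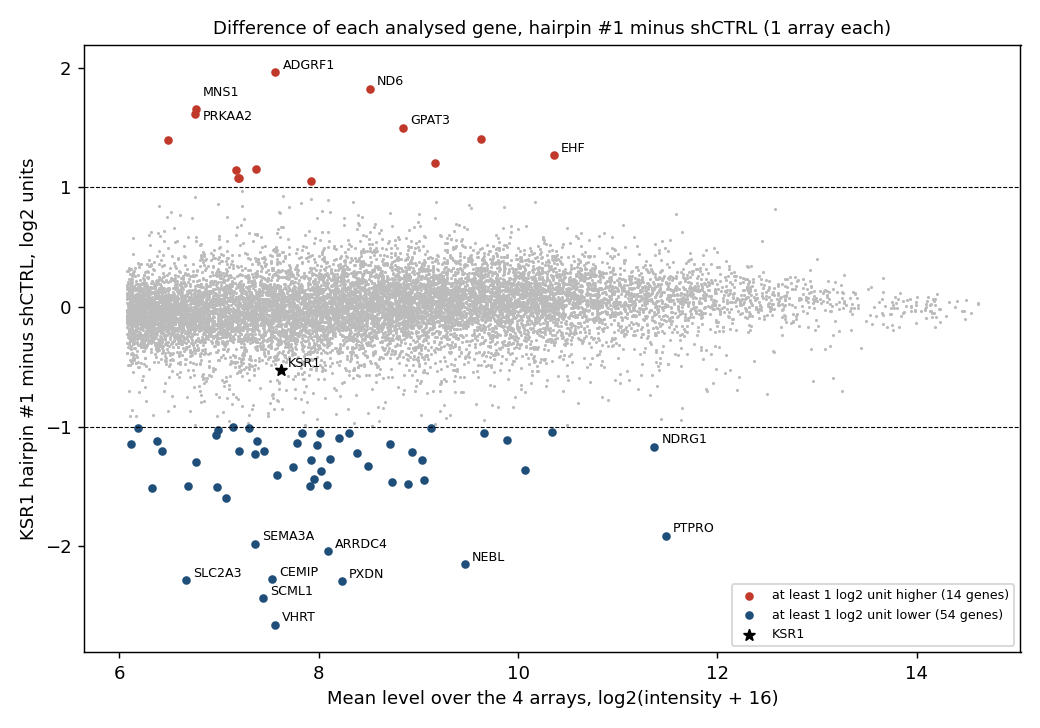
Difference of each analysed gene (hairpin #1 minus shCTRL, log2 units, y axis) against its mean log2(intensity + 16) over the 4 arrays (x axis), with 1 point per gene and the genes past 1 unit coloured. The 14 higher genes reach 1.96 units and the 54 lower genes reach -2.66, and the coloured points occur over most of the brightness range.

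ADGRF1, an adhesion G protein-coupled receptor, had an intensity of 513 with hairpin #1 and 120 in shCTRL, and of 88.0 with hairpin #2 and 156 in untransfected cells. Hairpin #1 stood alone above the other three arrays, the log2 difference was 1.96, and both further ADGRF1 probe sets were higher by 1.21 and 1.81. IL6R, the ligand-binding chain of the interleukin 6 receptor, showed 221 with hairpin #1 and 96.1 in shCTRL, against 82.2 with hairpin #2 and 160 in untransfected cells, a difference of 1.08. STEAP1, a membrane protein of the metalloreductase family, was at 846 with hairpin #1 and 357 in shCTRL (1.21), and at 638 with hairpin #2 and 505 in untransfected cells, so that shCTRL was the lowest array.

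EHF, an ETS-family factor of epithelial cells, had an intensity of 2080 with hairpin #1 and 855 in shCTRL, and of 3328 with hairpin #2 and 470 in untransfected cells. Both hairpin arrays were above both arrays without a KSR1 hairpin, and the 4 further EHF probe sets differed by 0.99, 1.08, 1.18 and 1.40, beside 1.27 for the brightest. MECOM, a zinc-finger factor known from leukaemia and from stem cells, was at 125 with hairpin #1 and 37.6 in shCTRL (1.40), and at 139 with hairpin #2 and 38.5 in untransfected cells. The MECOM value of shCTRL was under the filter, so the size of its difference depends on the offset of 16.

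PRKAA2, the alpha2 catalytic subunit of the energy sensor AMPK, had an intensity of 221 with hairpin #1 and 61.6 in shCTRL, and of 219 with hairpin #2 and 16 in untransfected cells. At this brightest probe set all 3 transfected arrays were above the untransfected one, and the difference was 1.61. The other PRKAA2 probe set differed by 0.48, with 44.2 in shCTRL and 47.6 in untransfected cells. GPAT3, a glycerol-3-phosphate acyltransferase of triglyceride synthesis, showed 507 with hairpin #1 and 169 in shCTRL (1.5), with 455 in the hairpin #2 array and 979 in untransfected cells. WNT16, a secreted WNT ligand, showed 1149 with hairpin #1 and 424 in shCTRL (1.40), with 321 in the hairpin #2 array and 2234 in untransfected cells. For both of these genes the untransfected array was the highest of the 4, so hairpin #1 was above shCTRL and below untransfected cells. ND6, a mitochondrially encoded subunit of respiratory complex I, was at 885 with hairpin #1 and 238 in shCTRL (1.83), and at 304 with hairpin #2 and 225 in untransfected cells. CHAC1, which degrades glutathione and is a target of the stress factor ATF4, was at 221 with hairpin #1 and 96.5 in shCTRL (1.08), and at 150 with hairpin #2 and 90.1 in untransfected cells. PER2, a repressor of the circadian clock, was at 135 with hairpin #1 and 52.3 in shCTRL (1.14), and at 356 with hairpin #2 and 97.5 in untransfected cells, with shCTRL the lowest. SH3RF2, a protein with SH3 domains, was at 254 with hairpin #1 and 105 in shCTRL (1.16), and at 152 with hairpin #2 and 121 in untransfected cells. PWWP3B, with a PWWP chromatin-binding domain, was at 413 with hairpin #1 and 191 in shCTRL (1.05), and at 154 with hairpin #2 and 211 in untransfected cells. MNS1, a structural protein of the axoneme of cilia and flagella, was at 129 with hairpin #1 and 30.2 in shCTRL (1.66), and at 183 with hairpin #2 and 88.3 in untransfected cells. The MNS1 value of shCTRL was under the filter, and it was the lowest of the 4 arrays.

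**Figure D2:**
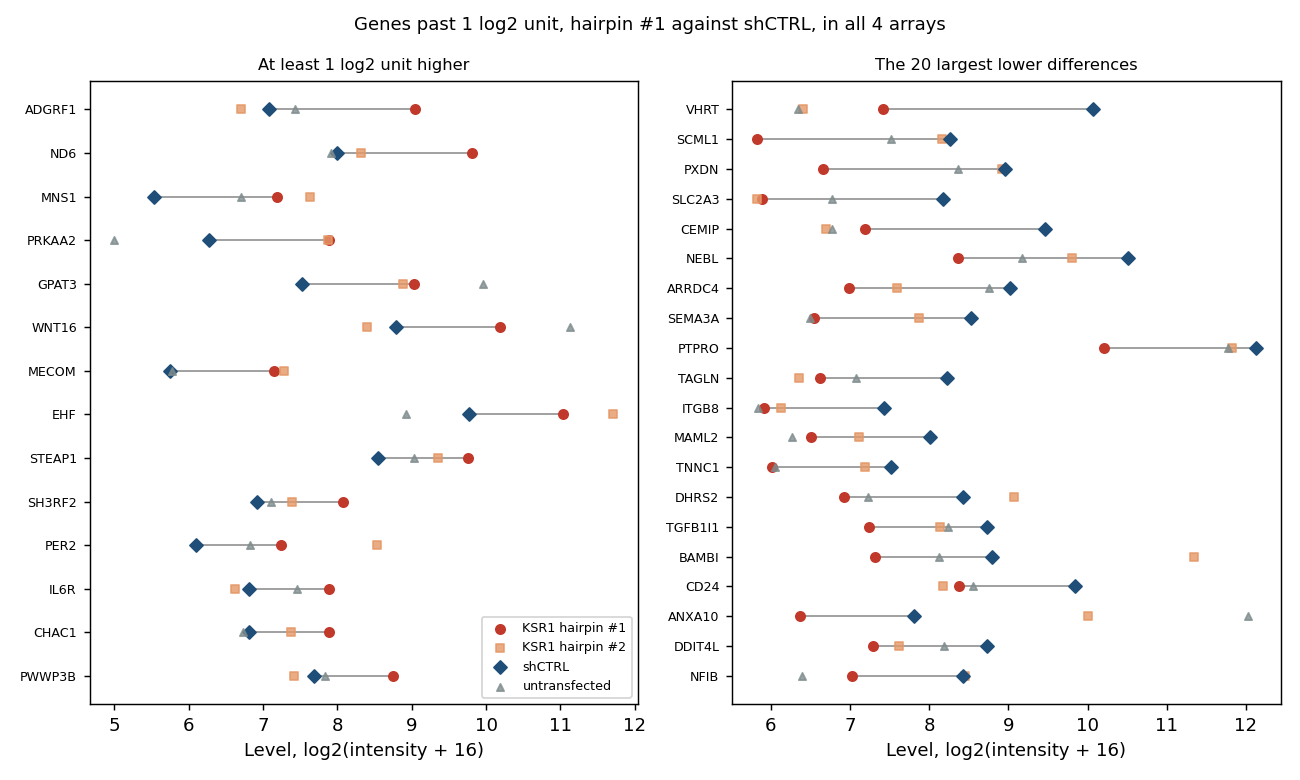
Log2(intensity + 16) (x axis) in each of the 4 arrays for the 14 higher genes and the 20 lower genes with the largest differences, 1 row per gene and 1 point per array. ADGRF1 has its hairpin #1 point alone at the high end, and the VHRT and CEMIP points of shCTRL stand above the points of the other 3 arrays.

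Of the 54 lower genes, those with roles in adhesion, matrix or the cytoskeleton are described before the others, an order set by hand. The median of the fixed list of integrins and laminins was -0.0045, with 2 of 15 lower by 0.5 units and 0 higher, against 2.77% and 1.68% of all genes, and that of matrix and protease genes was -0.0051. PXDN, a peroxidase that crosslinks collagen IV of basement membranes, had an intensity of 85.5 with hairpin #1 and 482 in shCTRL, and of 469 with hairpin #2 and 315 in untransfected cells. Hairpin #1 was the only low array for PXDN, with differences of -2.29 and, for a second probe set, -1.67. NEBL, an actin-binding protein of the nebulin family, was at 314 with hairpin #1 and 1447 in shCTRL (-2.15), and at 879 with hairpin #2 and 558 in untransfected cells, and its 3 further probe sets differed by -1.98, -0.84 and -0.42. CEMIP, which binds and degrades hyaluronan, was at 129 with hairpin #1 and 689 in shCTRL (-2.28), and at 87.9 with hairpin #2 and 93.5 in untransfected cells. Here shCTRL alone was high, and hairpin #1 lay slightly above the untransfected array. TAGLN, the actin-bundling transgelin, was at 82.8 with hairpin #1 and 282 in shCTRL (-1.59), and at 66.2 with hairpin #2 and 119 in untransfected cells. The further TAGLN probe sets differed by -1.24 and -0.11. TGFB1I1, a focal adhesion adaptor also called Hic-5, was at 135 with hairpin #1 and 407 in shCTRL (-1.49), and at 265 with hairpin #2 and 286 in untransfected cells. LAMB1, a laminin chain, was at 198 with hairpin #1 and 428 in shCTRL (-1.05), and at 287 with hairpin #2 and 332 in untransfected cells, which made hairpin #1 the lowest array for both genes. ITGB8, an integrin that activates latent TGF-beta, was at 44.1 with hairpin #1, under the filter, and at 156 in shCTRL (-1.52), with 53.7 in the hairpin #2 array and 41.3 in untransfected cells. COL13A1, a transmembrane collagen, was at 201 with hairpin #1 and 434 in shCTRL (-1.05), while its 2 further probe sets differed by -0.36 and -0.32.

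PTPRO, a receptor tyrosine phosphatase, had an intensity of 1168 with hairpin #1 and 4439 in shCTRL (-1.91), and of 3602 with hairpin #2 and 3485 in untransfected cells, so that the other three arrays were alike and hairpin #1 low. SEMA3A, a secreted semaphorin that repels axons, was at 77.3 with hairpin #1 and 352 in shCTRL (-1.98), and at 219 with hairpin #2 and 74.0 in untransfected cells. PTCH1, the hedgehog receptor, was at 135 with hairpin #1 and 350 in shCTRL (-1.28), and at 167 with hairpin #2 and 323 in untransfected cells, and both KSR1 hairpin arrays were below both other arrays. IL17RB, a receptor chain for interleukin 17 family cytokines, was at 337 with hairpin #1 and 805 in shCTRL (-1.22), and at 432 in each of the other two arrays. BAMBI, a pseudoreceptor that dampens TGF-beta and BMP signals, was at 143 with hairpin #1 and 428 in shCTRL (-1.48), and at 2585 with hairpin #2 and 263 in untransfected cells. The pair of KSR1 hairpin arrays lay at opposite ends of the 4 for BAMBI. SMAD7, an intracellular inhibitor of the same signals, was at 23.4 with hairpin #1, under the filter, and 63.3 in shCTRL (-1.01), with 135 in the hairpin #2 array and 43.3 in untransfected cells. PDGFC, a platelet-derived growth factor, was at 503 with hairpin #1 and 1033 in shCTRL (-1.01), and at 369 with hairpin #2 and 452 in untransfected cells. IGFBP3, which binds insulin-like growth factors, was at 52.6 with hairpin #1 and 142 in shCTRL (-1.20), and at 47.4 with hairpin #2 and 63.0 in untransfected cells. For PDGFC and IGFBP3 shCTRL was the only high array. CD24, a glycosylphosphatidylinositol-anchored sialoglycoprotein, was at 316 with hairpin #1 and 901 in shCTRL (-1.47), and at 273 with hairpin #2 and 359 in untransfected cells. Its 5 further probe sets ran from -1.42 to -0.30, and CD24 has near-identical copies in the genome that its probes may also read.

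SCML1, a relative of the Polycomb group proteins, had an intensity of 40.7 with hairpin #1, under the filter, and of 291 in shCTRL (-2.44), with 270 in the hairpin #2 array and 167 in untransfected cells. MAML2, a coactivator of Notch, was at 74.8 with hairpin #1 and 242 in shCTRL (-1.51), and at 123 with hairpin #2 and 60.8 in untransfected cells. NFIB, a nuclear factor I protein, was at 115 with hairpin #1 and 329 in shCTRL (-1.40), and at 335 with hairpin #2 and 68.2 in untransfected cells, and 2 further probe sets differed by -1.12 and -1.05. ZNF704, a zinc-finger protein, was at 255 with hairpin #1 and 666 in shCTRL (-1.33), and at 341 with hairpin #2 and 241 in untransfected cells. For MAML2, NFIB and ZNF704 the untransfected array was the lowest of the 4, so hairpin #1 was above it while below shCTRL. The largest difference of all belonged to VHRT, a long noncoding RNA, at 154 with hairpin #1 and 1058 in shCTRL (-2.66), and at 68.9 with hairpin #2 and 64.9 in untransfected cells. LINC00326, a second long noncoding RNA, was at 173 with hairpin #1 and 364 in shCTRL (-1.01), and at 80.2 with hairpin #2 and 73.6 in untransfected cells. BLACAT1, the bladder cancer associated transcript, was at 100 with hairpin #1 and 250 in shCTRL (-1.20), and at 150 with hairpin #2 and 75.4 in untransfected cells. In all 3 of these transcripts hairpin #1 lay between shCTRL, which was high, and untransfected cells, which were low.

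KRT13 and KRT23, keratins of the epithelial cytoskeleton, differed by -1.30 and -1.14. The other keratins of the fixed list differed less, the next in size being KRT20 at -0.22, and the list median was -0.14. KRT23 had an intensity of 203 with hairpin #1 and 468 in shCTRL, and of 1109 with hairpin #2 and 247 in untransfected cells, and KRT13 was at 22.2 with hairpin #1, under the filter, and 77.9 in shCTRL, with 273 in the hairpin #2 array and 119 in untransfected cells. CSTA, a cysteine protease inhibitor of epithelia, was at 270 with hairpin #1 and 679 in shCTRL (-1.28), and at 1273 with hairpin #2 and 278 in untransfected cells. These 3 genes had their highest value with hairpin #2. ANXA10, an annexin, had the widest range over the arrays of the 54 genes, with 66.3 with hairpin #1 and 208 in shCTRL (-1.45), and 1013 with hairpin #2 and 4170 in untransfected cells. DHRS2, a short-chain dehydrogenase, was at 106 with hairpin #1 and 327 in shCTRL (-1.50), and at 521 with hairpin #2 and 134 in untransfected cells. DDIT4L, an inhibitor of mTOR signalling, was at 140 with hairpin #1 and 407 in shCTRL (-1.44), and at 180 with hairpin #2 and 276 in untransfected cells. KIAA0040 was at 203 with hairpin #1 and 551 in shCTRL (-1.37), and at 148 with hairpin #2 and 208 in untransfected cells. TNNC1, the slow-muscle and cardiac troponin C, was at 48.7 with hairpin #1, under the filter, and 167 in shCTRL (-1.50), with 130 in the hairpin #2 array and 50.1 in untransfected cells. The lower genes not given elsewhere in full were PPP1R14C (-1.27), GNAL (-1.23), COCH (-1.22), SOBP (-1.20), PLAT (-1.16), TCAM1P (-1.15), NREP (-1.14), ARG2 (-1.12), MAMDC2 (-1.12), SYNE2 (-1.10), TESC (-1.07), PKIB (-1.06), AOPEP (-1.06), C14orf132 (-1.03) and SEPTIN3 (-1.01). Of these, TCAM1P was at 36.4 with hairpin #1, under the filter, and 99.9 in shCTRL, so the size of its difference depends on the offset.

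Further probe sets gave a second reading of the same genes on the same arrays. These readings did not enter the choice of genes. The filter on them, however, used the mean over all arrays, hairpin #1 and shCTRL included. A dim probe set that was high in either array passed more easily. The agreement in direction given below is therefore partly set by the filter and is no independent check. Of all 22795 single-symbol probe sets past the filter, 27 (0.118%) were at least 1 unit higher and 80 (0.351%) at least 1 unit lower, the chosen ones included. Of the 14 higher genes, 7 had further probe sets past the filter, 12 in all, of which 12 were higher and 9 by at least 1 unit. Of the 54 lower genes, 25 had further probe sets, 40 in all, of which 38 were lower and 20 by at least 1 unit. The exceptions in direction were COCH, the cochlin gene of the inner ear matrix, at 0.36 and AOPEP, an aminopeptidase, at 0.04. For 6 lower genes no further probe set reached 0.5 units, which were NREP at -0.29, ARG2 at -0.24, SYNE2 at -0.23, C14orf132 at -0.28, PDGFC at -0.38 and COL13A1. The remaining 7 higher and 29 lower genes had 1 probe set each past the filter. Some of them have further probe sets under the filter. With the mean over all probe sets, the difference shrank for PER2 (0.56), PTPRO (-0.63), ANKRD37 (-0.52), CEMIP (-1.29), SEMA3A (-1.33) and TESC (-0.45). ITGB8, MAML2, PTCH1 and SOBP had no value in that setting, and the rest of these genes kept theirs. A value under the filter stood behind 2 of the 14 higher genes, on the shCTRL side, and 7 of the 54 lower genes, on the hairpin #1 side.

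Gene lists for pathways of this cell type were read as counts and medians beside those of all genes, with no test. They hold 949 genes in 34 lists, and 731 of these genes were analysed. The list furthest from the median of all genes, 0.0030, was the hypoxia and glycolysis list, at -0.58. Lists that lay next were Wnt targets at -0.41, G2/M and spindle genes at 0.28, EPH receptors, ephrins and semaphorins at -0.21 (-0.07 against untransfected cells) and p53 targets at -0.17.

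**Figure D3:**
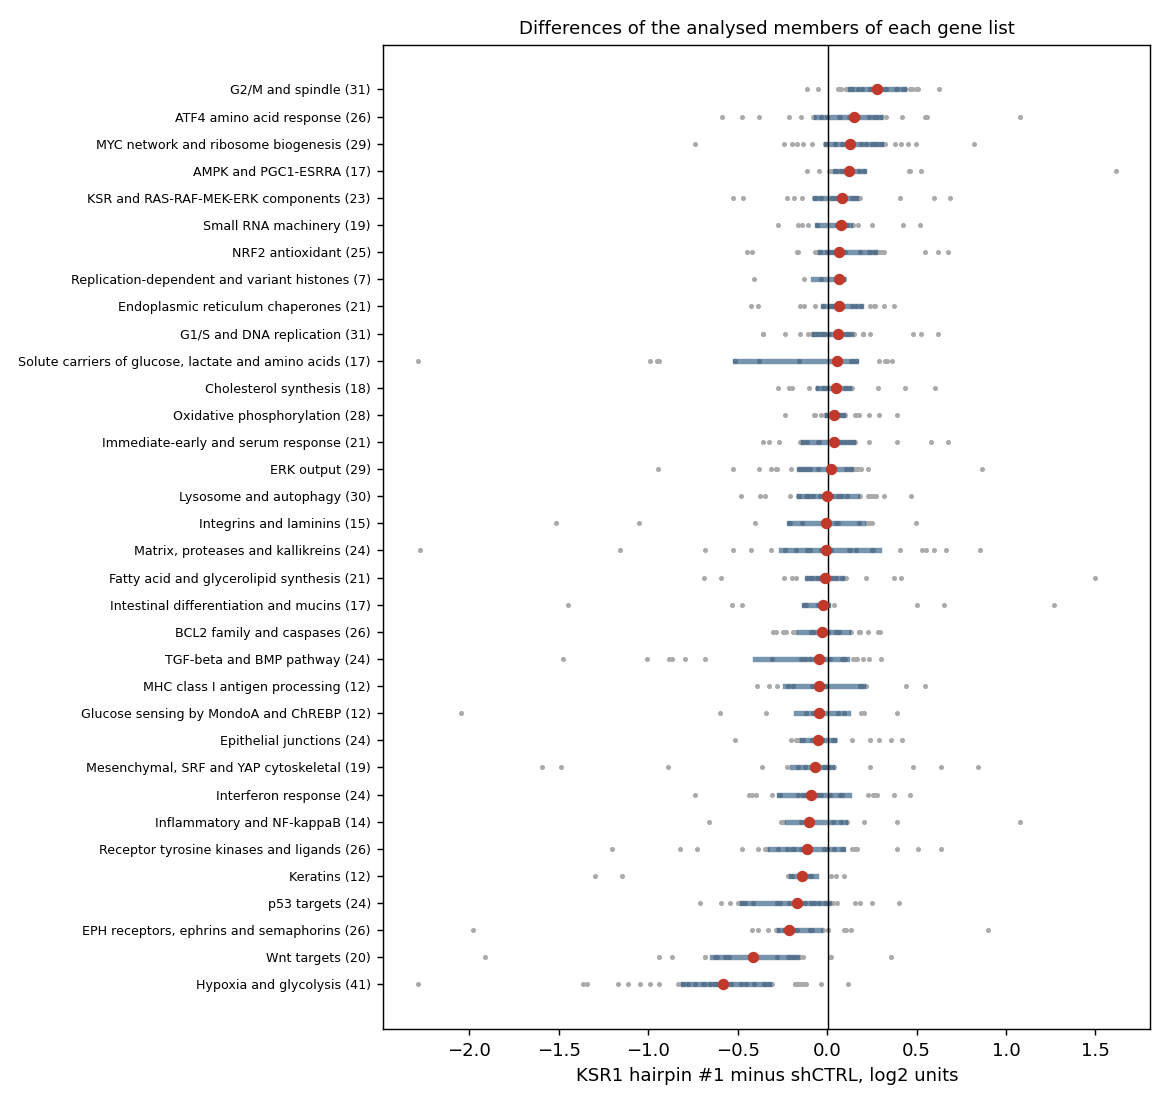
Differences (hairpin #1 minus shCTRL, log2 units, x axis) of the analysed members of each gene list (rows, ordered by median), with a grey point per gene, a red point at the median and a blue bar between the quartiles; the vertical line is the median of all analysed genes. The hypoxia and glycolysis list is at one end with a median of -0.58 and the G2/M and spindle list at the other with 0.28.

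Cells respond to low oxygen through the HIF transcription factors. These bind short DNA cores, ACGTG among them, near genes for glucose uptake, glycolysis, collagen hydroxylation and pH control. Tumour cell lines also express these genes to some level in ordinary culture. Of 45 genes on the list 41 were analysed, and 40 of these were lower with hairpin #1 and 1 higher, against 49.2% of all analysed genes lower. At the 0.5-unit step 25 of 41 were lower and 0 higher, against 2.77% and 1.68% of all genes, and at 1 unit 6 of 41 were lower, against 0.432%. The quartiles of the list were -0.81 and -0.32.

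Glucose uptake and glycolysis genes spanned the list. SLC2A3, the high-affinity glucose transporter GLUT3, had an intensity of 43.0 with hairpin #1, under the filter, and of 272 in shCTRL, and of 40.9 with hairpin #2 and 93.8 in untransfected cells. Both KSR1 hairpin arrays were low, and the difference of -2.28 came with -1.75 and -0.87 for the further SLC2A3 probe sets. SLC2A1, the basal transporter GLUT1, was at 750 with hairpin #1 and 1506 in shCTRL (-0.99), and at 3313 with hairpin #2 and 1081 in untransfected cells, so hairpin #1 was the lowest array and hairpin #2 the highest. ALDOC, aldolase C, was at 646 with hairpin #1 and 1689 in shCTRL (-1.36), and at 646 with hairpin #2 and 1785 in untransfected cells. ENO2, enolase 2, was at 666 with hairpin #1 and 1294 in shCTRL (-0.94), and PFKFB4, a regulator of glycolytic flux, at 819 with hairpin #1 and 1472 in shCTRL (-0.83). The most abundant glycolytic enzymes differed little: GAPDH was at 18256 with hairpin #1 and 19955 in shCTRL (-0.13), LDHA at 13491 with hairpin #1 and 15187 in shCTRL (-0.17), and ENO1 at 11966 with hairpin #1 and 13225 in shCTRL (-0.14). PFKFB3, a second regulator of glycolytic flux, at 580 with hairpin #1 and 533 in shCTRL (0.12), was the single member that was higher. In this group the genes other than SLC2A3 and ALDOC were chosen after their values were seen.

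Members with other roles followed the same direction. CA12, a carbonic anhydrase of the cell surface, had an intensity of 109 with hairpin #1 and 300 in shCTRL (-1.34), and of 179 with hairpin #2 and 254 in untransfected cells, and its 2 further probe sets differed by -2.32 and -1.57. PLOD2, a lysyl hydroxylase of collagen, was at 594 with hairpin #1 and 1303 in shCTRL (-1.11), and at 860 with hairpin #2 and 1128 in untransfected cells. NDRG1, a stress-induced gene, was at 1543 with hairpin #1 and 3496 in shCTRL (-1.17), and at 1510 with hairpin #2 and 5778 in untransfected cells. ANKRD37, an ankyrin-repeat protein and HIF target, was at 786 with hairpin #1 and 1637 in shCTRL (-1.04), and at 778 with hairpin #2 and 2688 in untransfected cells. In ALDOC, CA12, PLOD2, NDRG1 and ANKRD37 both KSR1 hairpin arrays were below both arrays without one. VEGFA, the vascular growth factor, was at 1547 with hairpin #1 and 1755 in shCTRL (-0.18), a value seen before it was chosen for mention.

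Set against untransfected cells, the list median of hairpin #1 was -0.59, and the shCTRL array itself stood at -0.03 against untransfected cells. The list median of hairpin #2 minus shCTRL was -0.53, in a comparison that shares the shCTRL array. Medium acidity, cell density and oxygen at harvest are not recorded in the labels, and their part in these values was not tested.

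**Figure D4:**
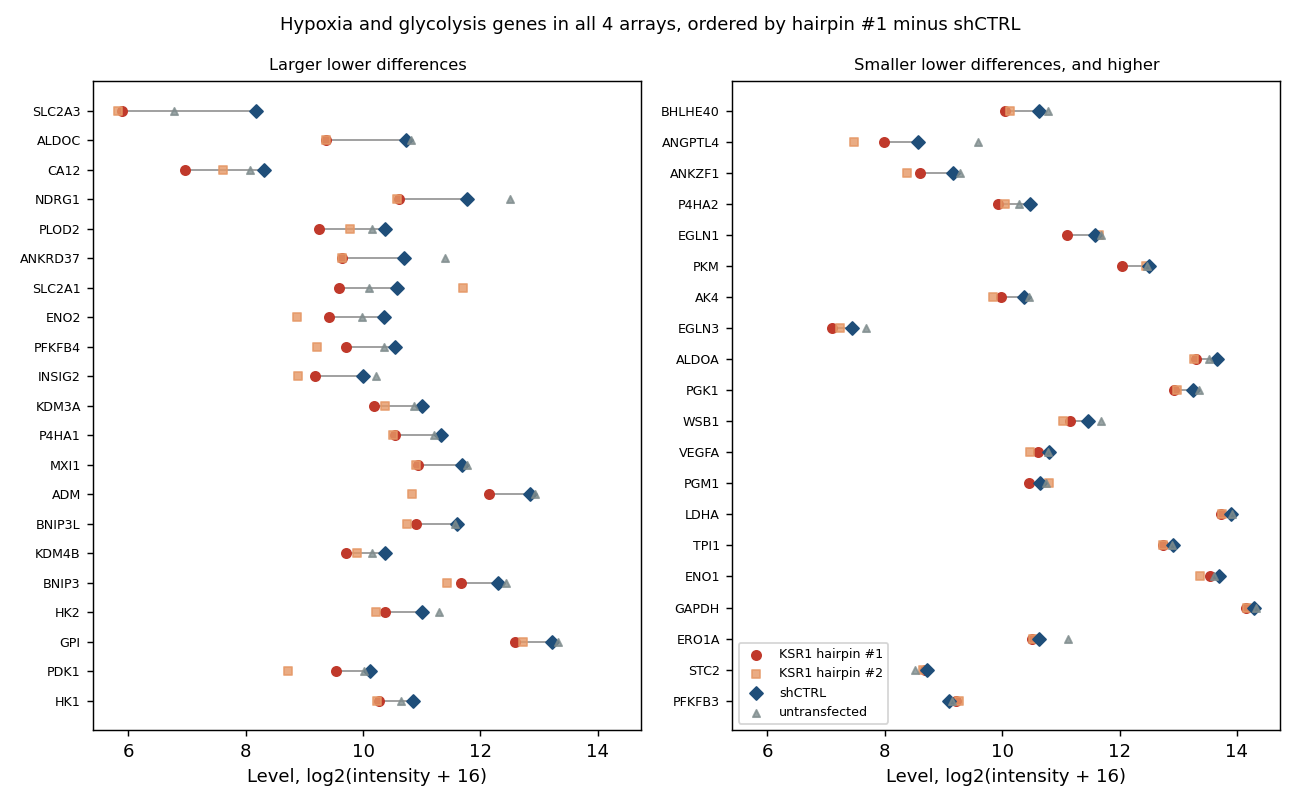
Log2(intensity + 16) of the analysed members of the hypoxia and glycolysis list (rows, ordered by their difference) in each of the 4 arrays, with 1 point per array. The points of hairpin #1 lie below those of shCTRL for every member except PFKFB3. SLC2A1 has its hairpin #2 point at 11.70, an intensity of 3313, above the other arrays.

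The promoters of 4 genes that were at least 1 unit lower are printed here because they hold ACGTG: 3 members of the list (ALDOC, PLOD2, ANKRD37) and ARRDC4, from the glucose-sensing list, whose promoter is known to bind the glucose-responsive factor MondoA at E-boxes of the form CACGTG. They run 5′ to 3′ in the direction of transcription, from 250 bases before the start of the gene to 50 after, and are RefSeq windows of GRCh38.p14. ALDOC lies at chr17:28576846-28577145 on the minus strand, PLOD2 at chr3:146161135-146161434 on the minus strand, ANKRD37 at chr4:185396591-185396890 on the plus strand and ARRDC4 at chr15:97960453-97960752 on the plus strand. Capitals mark ACGTG on either strand, which reads CACGT where it lies on the opposite strand. A CACGTG holds the core on both strands and counts as a pair of overlapping matches.
ALDOC: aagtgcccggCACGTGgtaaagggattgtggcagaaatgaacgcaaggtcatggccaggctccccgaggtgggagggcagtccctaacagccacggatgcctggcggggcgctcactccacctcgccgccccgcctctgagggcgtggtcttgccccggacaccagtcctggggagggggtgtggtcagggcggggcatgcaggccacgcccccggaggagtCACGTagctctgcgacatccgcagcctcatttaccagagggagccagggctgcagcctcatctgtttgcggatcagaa
PLOD2: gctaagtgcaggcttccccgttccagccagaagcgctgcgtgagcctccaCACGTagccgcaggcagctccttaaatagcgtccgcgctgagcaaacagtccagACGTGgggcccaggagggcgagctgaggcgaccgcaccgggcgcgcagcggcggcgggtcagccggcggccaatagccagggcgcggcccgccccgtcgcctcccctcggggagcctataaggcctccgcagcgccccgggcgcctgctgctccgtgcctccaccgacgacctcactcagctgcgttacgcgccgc
ANKRD37: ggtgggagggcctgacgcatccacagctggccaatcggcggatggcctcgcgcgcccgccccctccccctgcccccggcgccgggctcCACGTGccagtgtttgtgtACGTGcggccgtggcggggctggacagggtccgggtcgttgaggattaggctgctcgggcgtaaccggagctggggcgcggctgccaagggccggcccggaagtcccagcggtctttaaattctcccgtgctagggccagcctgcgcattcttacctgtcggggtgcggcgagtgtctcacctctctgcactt
ARRDC4: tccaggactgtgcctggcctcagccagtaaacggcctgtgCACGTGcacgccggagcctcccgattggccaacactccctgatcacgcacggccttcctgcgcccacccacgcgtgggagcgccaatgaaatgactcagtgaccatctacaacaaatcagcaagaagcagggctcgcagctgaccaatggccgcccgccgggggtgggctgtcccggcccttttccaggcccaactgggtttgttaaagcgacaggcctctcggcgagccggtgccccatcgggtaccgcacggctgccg

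The cores lie upstream of the start in all 4 windows: PLOD2 has one on each strand, ALDOC and ANKRD37 a CACGTG and a single core, and ARRDC4 a CACGTG alone. The window of CA12 holds no ACGTG in its 300 bases. Windows of SLC2A3 and NDRG1, also list members at least 1 unit lower, were not among those available for printing, and nothing is said of their motifs. Among the list's analysed genes, 20 of 36 windows (55.6%) held ACGTG and 9 (25%) held CACGTG, against 26.4% and 10.1% of the windows of all analysed genes and 21.4% and 7.26% of all 35116 windows. The list is made of genes known for HIF regulation, so its share is no independent reading. Within the list the share hardly moved with the difference: 12 of 21 windows (57.1%) of members at least 0.5 units lower held ACGTG, and 8 of 15 (53.3%) of the other members. Of all 54 lower genes 36 had a window, and 9 of these (25%) held ACGTG, close to the 26.4% of analysed genes. These matches are letters in a window and not measured binding, and other forms of the HIF core were not counted.

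Glucose-sensing genes had a median of -0.05 over 12 analysed members, of which 5 were higher and 7 lower. ARRDC4, an arrestin-like suppressor of glucose uptake, had an intensity of 110 with hairpin #1 and 505 in shCTRL (-2.04), and of 177 with hairpin #2 and 416 in untransfected cells, with both KSR1 hairpin arrays low. ARRDC3, a relative, was at 546 with hairpin #1 and 834 in shCTRL (-0.60), and at 267 with hairpin #2 and 1011 in untransfected cells. KLF10, a Kruppel-like factor, was higher at 2543 with hairpin #1 and 1938 in shCTRL (0.39), and at 1969 with hairpin #2 and 2175 in untransfected cells. TXNIP, another arrestin-like protein of this response, was at 47.2 with hairpin #1, under the filter, and 64 in shCTRL (-0.34). Of 17 analysed AMPK and PGC1-ESRRA genes 15 were higher, against 50.6% of all genes, 2 of them by 0.5 units, against 1.68%, and the median was 0.12. Beside PRKAA2, PRKAA1, the alpha1 subunit, was at 365 with hairpin #1 and 248 in shCTRL (0.53), and at 288 with hairpin #2 and 314 in untransfected cells.

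Known output genes of ERK were centred near 0 as a list. The 29 analysed genes had a median of 0.02, with 15 higher and 14 lower, against 50.6% and 49.2% of all genes. At 0.5 units 1 was higher and 2 lower, against 1.68% and 2.77%. DUSP6, the phosphatase that switches ERK off and is itself induced by ERK, had an intensity of 3003 with hairpin #1 and 5805 in shCTRL (-0.95), and of 3253 with hairpin #2 and 1772 in untransfected cells. DUSP6 was thus lower than in shCTRL with both KSR1 hairpins and higher than in untransfected cells. FOS, an immediate-early transcription factor, was at 175 with hairpin #1 and 88.7 in shCTRL (0.87), and at 107 with hairpin #2 and 90.2 in untransfected cells. SPRY1, a feedback inhibitor of receptor signalling, was at 121 with hairpin #1 and 181 in shCTRL (-0.52), and at 69.4 with hairpin #2 and 199 in untransfected cells. ETV4, an ETS factor downstream of ERK, differed by -0.38, EGR3 by -0.32 and SPRY2 by -0.29. The median of this list was -0.02 after quantile normalization, 0.19 with untransfected cells in place of shCTRL, and -0.0019 as a mean over probe sets. Immediate-early genes had a median of 0.04, with ZFP36, which promotes decay of cytokine mRNAs, at 1240 with hairpin #1 and 771 in shCTRL (0.68) and KLF2 at 1064 with hairpin #1 and 707 in shCTRL (0.58).

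Components of the pathway had a median of 0.08 over 23 analysed genes, with 2 higher and 1 lower at 0.5 units, against 1.68% and 2.77% of all genes. KSR2 and IQGAP1, which is another scaffold for ERK, were higher and KSR1 was lower. IQGAP1 was at 2029 with hairpin #1 and 1335 in shCTRL (0.60), and at 1838 with hairpin #2 and 2038 in untransfected cells, so shCTRL was the low array. Next in size were the RAS exchange factors SOS1 at -0.47 and SOS2 at 0.41. Receptor tyrosine kinases had a median of -0.11 over 26 genes. EGFR, the epidermal growth factor receptor, was at 452 with hairpin #1 and 811 in shCTRL (-0.82), and at 510 with hairpin #2 and 664 in untransfected cells. IGF1R, the receptor of insulin-like growth factor 1, was at 307 with hairpin #1 and 518 in shCTRL (-0.73), and AXL, a receptor of GAS6, was higher at 1172 with hairpin #1 and 749 in shCTRL (0.63).

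G2/M and spindle genes encode the cyclins, kinases and motors that carry cells into and through mitosis. Of 31 analysed members 29 were higher and 2 lower with hairpin #1, against 50.6% of all genes higher, yet at 0.5 units 2 were higher and 0 lower, against 1.68% and 2.77%, and none reached 1 unit. CCNB1, cyclin B1, had an intensity of 3600 with hairpin #1 and 2328 in shCTRL (0.63), and of 4573 with hairpin #2 and 2718 in untransfected cells, with both KSR1 hairpins above both other arrays. ECT2, a factor of cytokinesis, was at 1696 with hairpin #1 and 1187 in shCTRL (0.51), and at 1706 with hairpin #2 and 1780 in untransfected cells, so shCTRL was low and the other arrays alike. HMMR, a spindle-associated protein, was at 3543 with hairpin #1 and 2505 in shCTRL (0.50), and the motor KIF23 at 999 with hairpin #1 and 715 in shCTRL (0.47). The phosphatase CDC25B differed by 0.47 and the kinetochore motor CENPE by 0.47. Against untransfected cells the list median was 0.14, and that of shCTRL against untransfected cells was -0.14. For G1/S genes the median was 0.06, and 2 of 31 were higher at 0.5 units (1.68% of all genes), the replication helicase subunits MCM3 (0.62) and MCM7 (0.53).

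Wnt targets, which beta-catenin switches on and which are high in most colorectal cancers, had a median of -0.41 over 20 analysed genes. At 0.5 units 10 were lower and 0 higher, against 2.77% and 1.68% of all genes. Beside PTPRO, the transcription factor SOX4 had an intensity of 2391 with hairpin #1 and 4595 in shCTRL (-0.94), and of 2343 with hairpin #2 and 2202 in untransfected cells. BMP4, a bone morphogenetic protein, was at 433 with hairpin #1 and 804 in shCTRL (-0.87), and at 813 with hairpin #2 and 397 in untransfected cells. AXIN2, the feedback inhibitor most used as a readout of the pathway, was at 208 with hairpin #1 and 344 in shCTRL (-0.68), and at 933 with hairpin #2 and 230 in untransfected cells. CD44, a hyaluronan receptor, was at 3632 with hairpin #1 and 5848 in shCTRL (-0.68), and at 2694 with hairpin #2 and 3539 in untransfected cells. For SOX4, BMP4, AXIN2 and CD44 the hairpin #1 value lay nearer to the untransfected one than to shCTRL. NOTUM, a secreted Wnt inhibitor, differed by -0.63. The list median of hairpin #1 turned to 0.04 against untransfected cells, and that of shCTRL against untransfected cells was 0.45.

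**Figure D5:**
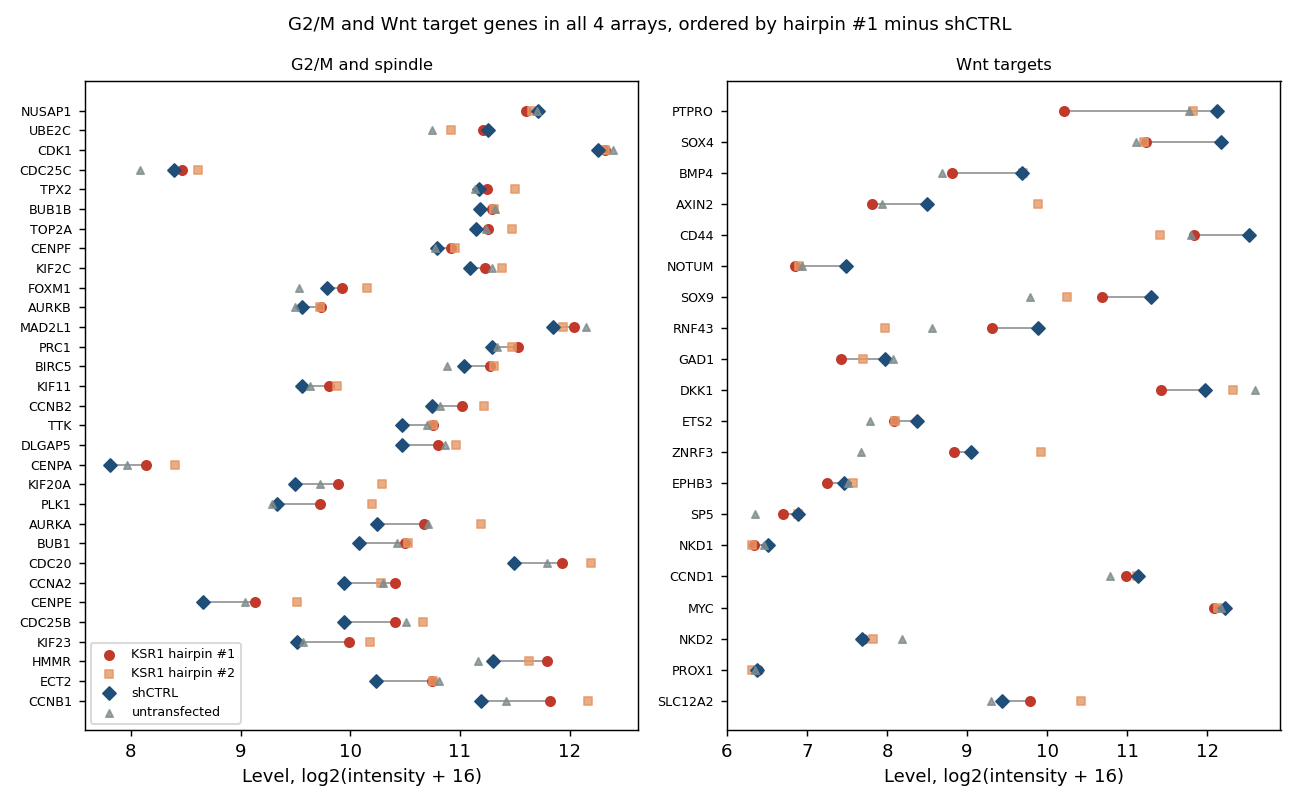
Log2(intensity + 16) of the analysed members of the G2/M and spindle list and of the Wnt target list (rows) in each of the 4 arrays, with 1 point per array. CCNB1 has both KSR1 hairpin points above the other arrays, while for SOX4, BMP4 and CD44 the hairpin #1 point lies by the untransfected one and below shCTRL.

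Targets of p53, the damage-responsive tumour suppressor that is intact in HCT116, had a median of -0.17, with 3 of 24 lower and 0 higher at 0.5 units, against 2.77% and 1.68% of all genes. These were PLK2, a polo-like kinase, at 503 with hairpin #1 and 834 in shCTRL (-0.71), FAM210B at 306 with hairpin #1 and 468 in shCTRL (-0.59), and TP53INP1, a p53-induced nuclear protein, at 480 with hairpin #1 and 707 in shCTRL (-0.54). In untransfected cells PLK2 was at 449, FAM210B at 310 and TP53INP1 at 385, and the list median of hairpin #1 turned to 0.16 against that array. The TGF-beta and BMP list had 6 of 24 members lower by 0.5 units and 0 higher, against 2.77% and 1.68% of all genes, with a median of -0.04. Beside BAMBI, SMAD7 and BMP4, SMAD6, an inhibitory SMAD, was at 62.0 with hairpin #1 and 128 in shCTRL (-0.88), and SKIL, a corepressor, at 282 with hairpin #1 and 500 in shCTRL (-0.79). SMAD9, a mediator of BMP signals, was at 120 with hairpin #1 and 202 in shCTRL (-0.68).

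Genes of the mesenchymal and SRF list, median -0.07, included MYL9, a myosin light chain, at 270 with hairpin #1 and 513 in shCTRL (-0.89), and VIM, vimentin, at 101 with hairpin #1 and 49.4 in shCTRL (0.84). The VIM value of shCTRL was under the filter and the lowest of the arrays, with 59.0 with hairpin #2 and 72.7 in untransfected cells. VIM is also one of the fibroblast markers, whose summed intensity was 932 with hairpin #1 and 928 in shCTRL. The matrix and protease list included KLK6, a kallikrein protease, at 804 with hairpin #1 and 437 in shCTRL (0.85), with 2783 in the hairpin #2 array and 252 in untransfected cells. Of the ATF4 amino acid response, median 0.15, the serine synthesis enzyme PSAT1 was at 3558 with hairpin #1 and 2408 in shCTRL (0.56), and the cystine transporter SLC7A11 at 628 with hairpin #1 and 424 in shCTRL (0.55), whereas DDIT4, which curbs mTOR, was at 4204 with hairpin #1 and 6333 in shCTRL (-0.59). Among solute carriers, median 0.06, 5 of 17 were lower by 0.5 units and 0 higher, against 2.77% and 1.68% of all genes. These 5 include SLC2A3 and SLC2A1, already given with the hypoxia and glycolysis list. The glutamate transporter SLC1A1 was at 274 with hairpin #1 and 545 in shCTRL (-0.95), and at 286 with hairpin #2 and 455 in untransfected cells. Its relative SLC1A3 was at 197 with hairpin #1 and 393 in shCTRL (-0.94), and at 204 with hairpin #2 and 200 in untransfected cells, so shCTRL alone was high. SEMA3C, a semaphorin, was higher at 396 with hairpin #1 and 205 in shCTRL (0.90), opposite to SEMA3A. In the lists of ER chaperones, oxidative phosphorylation, BCL2 family, lysosome and histone genes, 0 members reached 0.5 units in either direction, and their medians lay between -0.03 and 0.06.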

How the data were processed

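Total RNA, 2.5 microgram per array, was hybridised to Affymetrix 3' expression arrays of 54675 probe sets, 1 array for each of 4 conditions, per the labels' protocols. The authors deposited linear intensity values between 4.72 and 26251, one per probe set and array, with no log2 step; their background correction, normalization and probe summary are recorded in neither the labels nor the file headers. How bright a probe set is limits its precision, and the single arrays allow no error.

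Computed here: log2(intensity + 16) on the deposited intensities, with no further scaling, and its difference between the hairpin #1 array and the shCTRL array. A gene is its single-symbol probe set of highest mean over the 4 arrays, kept if that mean reached the median of all values (log2 value 6.07). The platform annotation gave 41097 probe sets 1 symbol, 1801 several and 11777 none; 41043 matched RefSeq by gene ID and 0 symbols were updated. The 62 control probe sets gave the RNA quality ratios only. Called means at least 1 log2 unit.

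Named were KSR1 and KSR2, genes past 1 unit (in full the 20 largest each way), and at most 6 genes per list, taken by size. Members of the hypoxia and glycolysis list beyond these, which the text marks, were chosen after their values were seen. The genes compared and the 34 lists were chosen with earlier results of these data known, and so support nothing independently. The code was tested on simulated data without noise, with differences planted in bright genes (Python 3.11.15, numpy 2.4.6, pandas 2.3.3, matplotlib 3.10.9). That checks the arithmetic only and says nothing of dim genes or of variation between arrays. Alternatives covered the filter, the offset, normalization, centring, the rule for several probe sets, the comparison array and the fold step.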

Additional observations from a re-analysis of the deposited data

Results flagged for a closer look

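Probe sets without a single gene symbol were left out of the comparison, and 2 of the 4576 that passed the filter (0.0437%) were at least 1 log2 unit higher with hairpin #1 than in shCTRL, which is a signal outside the main measurement. The first of them had an intensity of 1061 with hairpin #1 and 458 in shCTRL, and of 1170 with hairpin #2 and 1422 in untransfected cells, a difference of 1.18. The other had 89.1 with hairpin #1 and 35.7 in shCTRL, and 74.3 with hairpin #2 and 100 in untransfected cells, a difference of 1.02. In both, shCTRL was the lowest array. On the lower side 8 such probe sets (0.175%) passed 1 unit, led by one at 157 with hairpin #1 and 586 in shCTRL (-1.80). With 1 array a group, no outlying sample could be looked for.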

How the results depend on the processing

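The count of genes higher with hairpin #1, 14, was 6 with the filter at the 75th percentile, 8 with an offset of 64, 31 with untransfected cells in place of shCTRL and 114 at 1.5-fold. The count of lower genes, 54, was 29, 33, 63 and 228 under the same alternatives, and 32 with the mean over the probe sets of a gene. Without a filter, with an offset of 1, and after quantile normalization or median centring, both counts stayed within 1.5 times. The difference of KSR1 was -0.16 as a mean over probe sets and between -0.57 and -0.42 otherwise, and KSR1 did not pass the 75th percentile filter, so that it has no value there. KSR2, at 0.69, was 0.31 as a mean over probe sets and 0.015 against untransfected cells. The share of lower genes among those past 1 unit was 79.4%, and 67.0% against untransfected cells, where 6 of the 14 higher and 16 of the 54 lower genes remained past 1 unit in a comparison that shares the hairpin #1 array. The following genes past 1 unit turned in direction against untransfected cells: BLACAT1 0.34, CEMIP 0.41, GPAT3 -0.93, ITGB8 0.069, LINC00326 1.07, MAMDC2 1.14, MAML2 0.24, NFIB 0.63, PDGFC 0.15, SEMA3A 0.053, VHRT 1.07, WNT16 -0.95 and ZNF704 0.075. The cause was not tested. The median of the hypoxia and glycolysis list lay between -0.62 and -0.39 under all alternatives, and that of the Wnt targets between -0.56 and 0.04. No paired analysis was possible because each condition has 1 array. Genes near the filter have differences whose size depends on the offset.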
